A study of Mus musculus with 6 samples.

Results

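The transcripts of 10 apolipoproteins were followed in mouse liver with and without targeting of both copies of Srf. The genes were Apoa1, Apoa2, Apoa4, Apoa5, Apob, Apoc1, Apoc2, Apoc3, Apoe and Apom. They were represented by every probe set annotated with exactly 1 gene symbol, that of one of these genes, which gave 16 probe sets of the 45101 on the array. All 16 passed the filter on dim probe sets, so each of the 10 genes was among the 13144 genes tested. The 3 mutant mice were Srf loxP/loxP with the AlfpCre transgene, and the 3 control mice were Srf loxP/+ with the same transgene, so Cre was present in both groups and the controls also carried 1 loxP-flanked copy. All 6 mice were male and 3 weeks old, each was a separate animal, and total RNA from each liver was hybridised to 1 array. AlfpCre is a liver transgene in which albumin and alpha-fetoprotein control elements drive the recombinase in cells of the hepatocyte lineage. Which liver cells lost Srf was not measured here.

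Apolipoproteins are the protein part of the lipoprotein particles that carry cholesterol and triglyceride through plasma, and the liver is the main source of most of them. Apolipoprotein B forms the scaffold of very low density lipoproteins, the A-I and A-II proteins that of high density lipoproteins, and the small C proteins and apolipoprotein E move between particles and steer lipase activity and receptor uptake. SRF is a transcription factor best known for driving genes of the actin cytoskeleton and immediate early genes.

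Signals are given as log2 of the array intensity after each array was scaled to one trimmed mean, and every difference is mutant minus control on that scale. A gene was called when its adjusted p in limma, a linear model fitted across all 27022 probe sets kept, was under 0.05. The Srf transcript gave log2 signals of 4.18, 5.24 and 2.54 in mutants 1 to 3, against 5.31, 5.14 and 5.11 in controls 1 to 3 (1418256_at). A second probe set (1418255_s_at) gave 3.30, 0 and 1.99 in mutants 1 to 3, against 3.00, 3.69 and 3.37 in controls 1 to 3. The 0 is the floor set on signals under 1 and not a measured value. The background estimate was 3.05 in mutants and 2.86 in controls. Mutant 3 lay under it on both probe sets, and the controls of the second probe set lay close to it. Mutant 2 lay within the control range on the first and was the lowest array on the second, where mutant 1 lay within the control range. No label places either inside or outside the deleted part, so they do not check the genotypes. The arrays differed in quality and brightness. The geometric mean 3' to 5' signal ratio of the Actb, Gapdh and Pcx control probe sets, which goes up when RNA is degraded, was 4.53, 2.27 and 2.98 in mutants 1 to 3, against 1.88, 1.72 and 2.32 in controls 1 to 3. The factor that scaled each array was 1.45, 0.93 and 1.27 for mutants 1 to 3, against 0.98, 0.77 and 0.89 for controls 1 to 3. Hepatocyte markers were bright in both groups: 10 of 12 were measured, all above background, with a summed signal of 67744 to 89151 in mutants and 54676 to 61047 in controls, and none was at the floor on all arrays. A lower signal from fewer cells of a type and one from less RNA per cell cannot be told apart in whole liver.

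None of the 10 apolipoprotein genes passed the test. Their adjusted p values in limma ran from 0.387 to 0.747, and 0 of the 10 reached an unadjusted p under 0.05, where 14.4% of all genes did. Over all genes 0.114% were called, 0.0304% higher and 0.0837% lower in mutants. In 6 genes, Apoa1, Apoa2, Apoa5, Apoc1, Apoe and Apom, all 3 mutant arrays lay above all 3 controls, against 14.1% of all genes, and none lay wholly below, against 10.8%. The median difference of the 10 was 0.36, against 0.06 over all genes. That position depended on how the arrays were scaled: on the deposited scaling the medians were -0.09 for the 10 genes and -0.39 for all genes, after quantile normalization they were 0.07 and 0.02, and under both none of the 10 genes had separated groups. With each array centred on its median, 4 of the 10 did. The shares of 14.1% and 10.8% hold for arrays scaled to one trimmed mean, and shares of all genes under these other settings are not given. With the 3' to 5' ratio as a covariate the difference was 0.042 for Apoa1, 0.12 for Apoa2, 0.23 for Apoc1, 0.21 for Apoe and 0.16 for Apom, each less than the value given for that gene on scaled arrays by over 1.5 times. It was larger for Apoa5 (0.61), Apoa4 (0.98), Apoc3 (0.30) and Apoc2 (0.16), and Apob turned positive (0.44). Adjusted p values in that fit ran from 0.930 to 0.984 (limma). Mutants 1 and 3 had higher ratios than every control, so the fit separates the ratio from the group poorly.

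**Figure D1:**
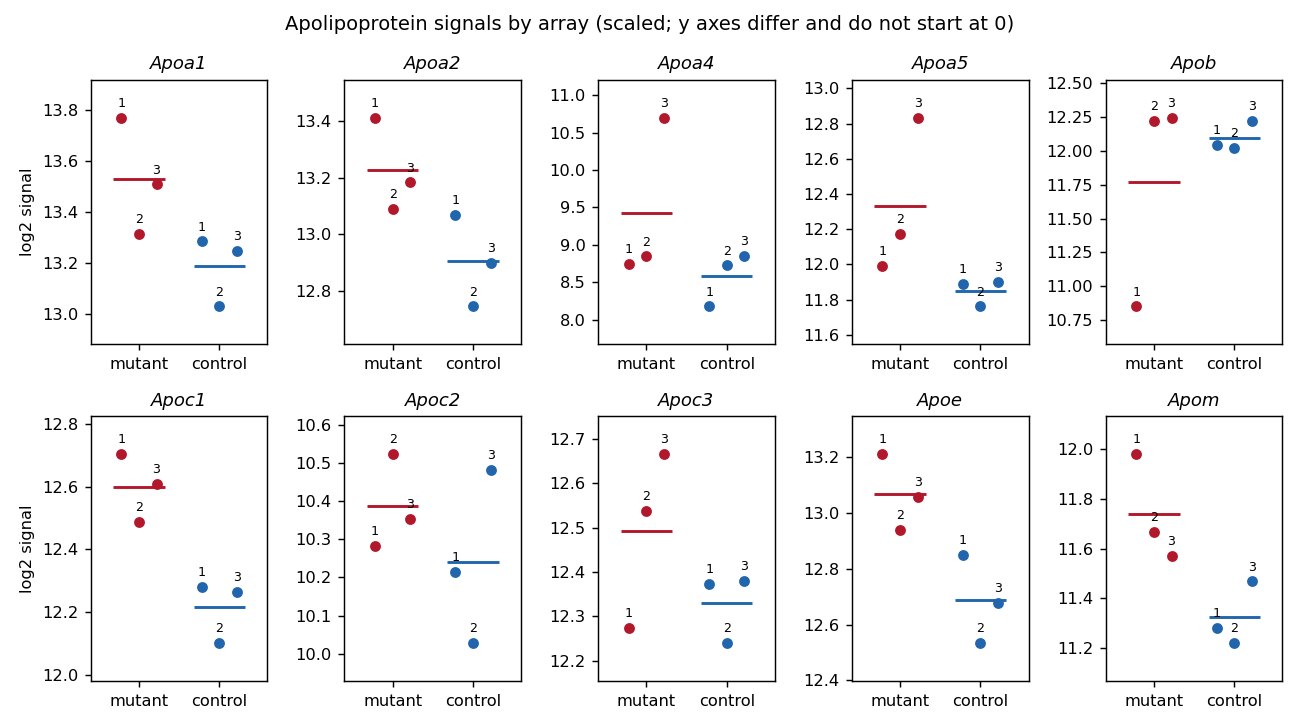
Log2 signal of the brightest probe set of each apolipoprotein gene on the 3 mutant arrays (red, left) and the 3 control arrays (blue, right); numbers are the replicate and the line is the group mean. No gene passed the test; mutant 3 stands apart for Apoa4 and Apoa5 and mutant 1 for Apob, and the 6 genes with separated groups lose the separation on the deposited scaling and after quantile normalization.

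The A-I and A-II apolipoproteins are the structural proteins of high density lipoprotein, and their probe sets were the 5 brightest of all probe sets kept. Apoa1 (1419232_a_at) had log2 signals of 13.77, 13.31 and 13.51 in mutants 1 to 3, against 13.28, 13.03 and 13.25 in controls 1 to 3. The mutants lay above the controls without overlap, by 0.34 (SE 0.21, 95% interval -0.14 to 0.82, adjusted p = 0.450, limma). The deposited intensities behind these values ran the other way on average, at 9614, 10969 and 9158 in mutants 1 to 3, against 10216, 10843 and 10960 in controls 1 to 3, with overlapping groups and a log2 difference of -0.11. Without mutant 1 the scaled difference was 0.22. The other Apoa1 probe sets, 1419233_x_at, 1438840_x_at and 1455201_x_at, end in x_at, a suffix for sets that can detect related transcripts, and had differences of 0.37, 0.35 and 0.38. Apoa2 (1417950_a_at) had 13.41, 13.09 and 13.18 in mutants, against 13.07, 12.75 and 12.90 in controls. It too was separated, by 0.32 (SE 0.20, adjusted p = 0.457, limma), and gave -0.13 on the deposited scaling and 0.00095 after quantile normalization.

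Bright probe sets outside the 10 genes were set beside them. A line was drawn, after the values were seen, at a mean log2 signal of 12. Above it lay 9 probe sets of 6 of the 10 genes and 121 other probe sets, Apoh, a further apolipoprotein, among them. The others had a median difference of 0.35, with 5% of them below -0.17 and 5% above 0.78, and -0.10 on the deposited scaling. Their median distance from the control mean was 0.58, 0.15 and 0.31 in mutants 1 to 3, the order also seen for Apoa1, Apoa2, Apoc1 and Apoe. Separated groups with higher mutants were found in 8 of the 9 bright apolipoprotein probe sets and in 57.9% of the 121 others. The median difference was 0.37 among probe sets of mean log2 signal between 11 and 12, 0.07 between 10 and 11, 0.0018 between 8 and 10, and 0.21 between 2 and 4, so it was not limited to signals above the line.

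**Figure D2:**
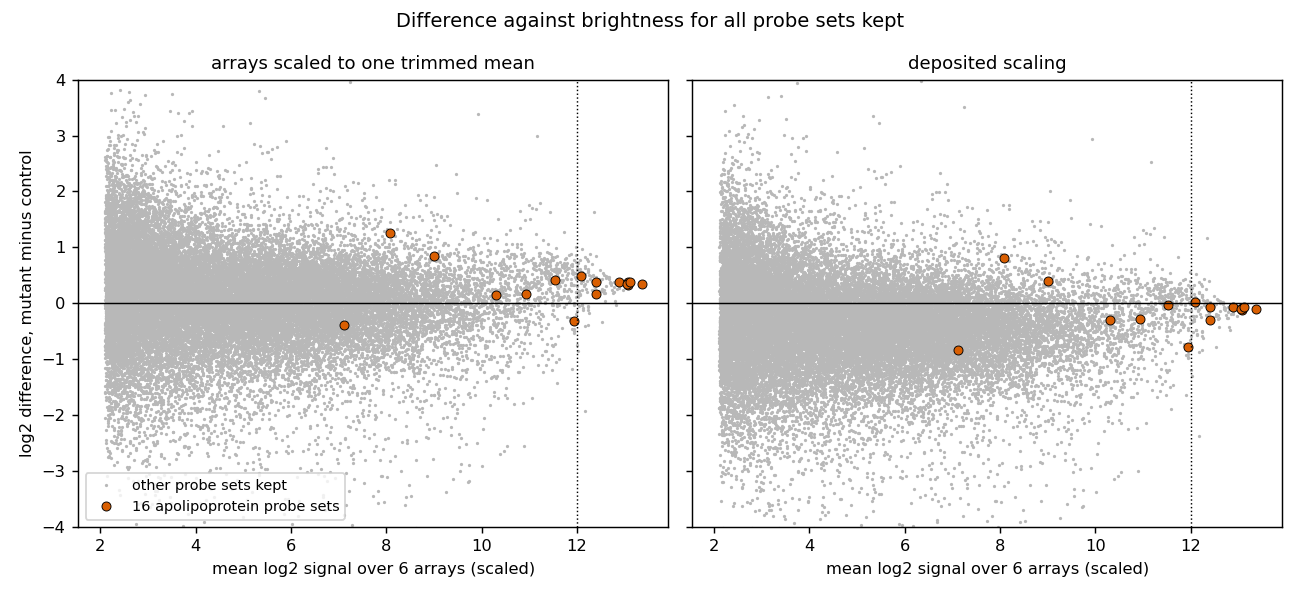
Log2 difference, mutant minus control, of every probe set kept against its mean log2 signal, with arrays scaled to one trimmed mean (left) and on the deposited scaling (right); apolipoprotein probe sets are orange, the dotted line marks a log2 signal of 12, and 67 (left) and 87 (right) probe sets lie beyond ±4. At the bright end the points narrow to a band near 0.35 in the scaled panel and near -0.10 in the deposited panel, and the bright apolipoproteins lie in it.

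Apoe encodes the apolipoprotein by which remnant particles bind their receptors on liver cells, and Apoc1 a small inhibitor of lipid transfer and lipase activity; the genes are neighbours on chromosome 7, with Apoc4 and Apoc2 beyond Apoc1. Apoe (1432466_a_at) had log2 signals of 13.21, 12.94 and 13.06 in mutants, against 12.85, 12.53 and 12.68 in controls. The difference was 0.38 (SE 0.20, 95% interval -0.08 to 0.84, adjusted p = 0.401, limma), with separated groups, and -0.07 on the deposited scaling. Apoc1 (1417561_at) had 12.70, 12.49 and 12.61 in mutants, against 12.28, 12.10 and 12.26 in controls. Its difference of 0.38 (SE 0.19) had the smallest adjusted p of the 10 genes, 0.387 in limma, and was -0.07 on the deposited scaling and -0.02 after quantile normalization. Apoe differed by 0.09 after quantile normalization, which does not multiply an array by 1 factor. The Apoc1 to Apoe ratio within an array, which multiplying an array by 1 factor cannot move, stayed close to the control mean. It was -0.03, 0.02 and 0.03 on the log2 scale in mutants 1 to 3, against -0.10, 0.04 and 0.06 in controls 1 to 3. The mutant and control means differed by 0.0038 (exact permutation p = 1; 0.1 is the smallest p that 3 against 3 arrays allow). Macrophages also make Apoe. All 10 of 10 macrophage markers were measured above background and none was at the floor, with a summed signal of 1293 to 1973 in mutants and 1821 to 2507 in controls, and their part in the Apoe signal was not tested.

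Apoc2, the activator that lipoprotein lipase needs, showed overlapping groups. Its log2 signals (1418069_at) were 10.28, 10.52 and 10.35 in mutants, against 10.22, 10.03 and 10.48 in controls, a difference of 0.14 (SE 0.21, 95% interval -0.35 to 0.63, adjusted p = 0.747, limma). Without control 2 it was 0.038, without mutant 2 it was 0.076, and without control 3 it was 0.26. Relative to Apoe it lay lower on mutants 1 and 3, at -0.48, 0.03 and -0.26 on the log2 ratio scale in mutants 1 to 3, against -0.19, -0.06 and 0.25 in controls 1 to 3. The groups overlapped and the ratio did not differ detectably (-0.24, exact permutation p = 0.4).

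Apoc3, an inhibitor of lipoprotein lipase, and Apoa5, a protein that promotes the same enzyme's work on triglyceride, have opposite effects on plasma triglyceride and lie in one cluster on chromosome 9 in the order Apoa1, Apoc3, Apoa4, Apoa5. Apoc3 (1418278_at) had log2 signals of 12.27, 12.54 and 12.67 in mutants, against 12.37, 12.24 and 12.38 in controls. Mutant 1 lay within the control range and mutants 2 and 3 above it, with a difference of 0.16 (SE 0.20, adjusted p = 0.698, limma) that was -0.29 on the deposited scaling and -0.24 after quantile normalization. It was 0.074 without mutant 3 and 0.27 without mutant 1. Apoa5 (1417610_at) had 11.99, 12.17 and 12.84 in mutants, against 11.89, 11.76 and 11.90 in controls. The groups were separated and the difference was 0.48 (SE 0.26, 95% interval -0.11 to 1.07, adjusted p = 0.408, limma), 0.03 on the deposited scaling. Without mutant 3 it was 0.23.

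Apoa4 encodes an apolipoprotein of triglyceride-rich and high density particles that in mouse is made by intestine and liver, and it had the largest difference of the 10 genes, resting on 1 animal. Its brighter probe set (1436504_x_at, one that can detect related transcripts) had log2 signals of 8.74, 8.84 and 10.70 in mutants 1 to 3, against 8.18, 8.73 and 8.85 in controls 1 to 3. Mutants 1 and 2 lay within the control range and mutant 3 was 2.12 above the control mean. The second probe set, 1417761_at, has no such suffix and had 7.73, 7.99 and 10.39 in mutants, against 6.87, 7.67 and 7.80 in controls. There mutant 3 was 2.94 above the control mean and mutant 2 a little above the highest control. The differences were 0.85 (SE 0.51, 95% interval -0.33 to 2.02, adjusted p = 0.446) and 1.26 (SE 0.66, adjusted p = 0.404, limma). Without mutant 3 the first was 0.21. These probe sets lay far below the bright end, and both kept a positive difference on the deposited scaling, at 0.39 and 0.81. Of 8 listed markers of intestinal epithelium, 4 were kept and 1 of them, Fabp2, was above background, with a summed signal of 41.4 to 276 in mutants and 449 to 775 in controls, and none was at the floor on all arrays.

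Within the chromosome 9 cluster the ratios of 3 genes to Apoa1 varied between the mutant arrays. Relative to Apoa1, Apoa4 stood at -0.42, 0.13 and 1.80 on the log2 ratio scale in mutants 1 to 3, against -0.51, 0.30 and 0.21 in controls 1 to 3. Apoa5 relative to Apoa1 stood at -0.44, 0.19 and 0.66 in mutants 1 to 3, against -0.06, 0.07 and -0.01 in controls 1 to 3. For Apoc3 relative to Apoa1 the values were -0.64, 0.08 and 0.01 in mutants, against -0.06, 0.07 and -0.01 in controls. Mutant 1 was thus the lowest mutant in all 3 ratios, and mutant 3 the highest for Apoa4 and Apoa5. None of the ratios differed detectably between the groups (mean differences 0.50, 0.14 and -0.18; exact permutation p = 0.7, 0.7 and 0.9; adjusted p = 1 for each of the 5 ratios computed, those of Apoc1 and Apoc2 to Apoe included). The spread between mutants was wider than between controls, with SDs of 1.16 against 0.44 for Apoa4 and 0.55 against 0.063 for Apoa5 (n = 3 each). This was not particular to the cluster. Signals outside it also spread more in mutants, such as Apob (0.80 against 0.11) and Cideb (1.10 against 0.12), while Vldlr spread less (0.15 against 0.79). The share over all genes is not given. Mutant arrays also ranged more widely in 3' to 5' ratio, and its part was not tested.

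**Figure D3:**
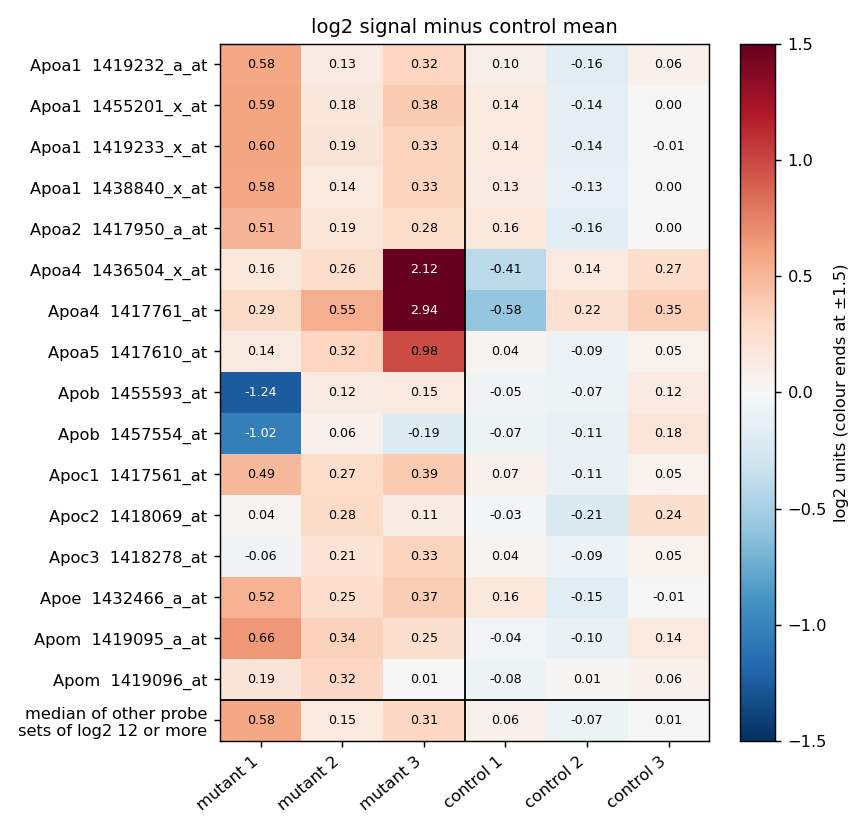
Log2 signal minus the control mean for each of the 16 apolipoprotein probe sets (rows) on the 3 mutant and 3 control arrays (columns), with scaled arrays; colours end at ±1.5, and the last row is the median of the 121 other probe sets of mean log2 signal of 12 or more. The Apoa1, Apoa2, Apoc1 and Apoe rows run like the last row, while Apoa4 reaches 2.12 and 2.94 in mutant 3 and Apob -1.24 and -1.02 in mutant 1.

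Apob, whose very long transcript encodes the scaffold of very low density lipoprotein, was the 1 gene of the 10 with a negative difference on scaled arrays, where 8 were negative on the deposited scaling. Its brighter probe set (1455593_at) had log2 signals of 10.85, 12.22 and 12.25 in mutants 1 to 3, against 12.05, 12.02 and 12.22 in controls 1 to 3. Mutant 1 lay 1.24 below the control mean, while mutants 2 and 3 were level with or just above the highest control. The dimmer probe set 1457554_at had 6.28, 7.36 and 7.11 in mutants, against 7.23, 7.20 and 7.49 in controls. Mutant 1 was again the lowest array, by 1.02 below the control mean, and mutant 3 lay just under the lowest control. The differences were -0.32 (SE 0.37, 95% interval -1.19 to 0.54, adjusted p = 0.677) and -0.39 (SE 0.32, adjusted p = 0.559, limma). The first was 0.14 without mutant 1, -0.55 without mutant 2 and -0.56 without mutant 3, and with the 3' to 5' ratio as a covariate it was 0.44. Mutant 1 was also the array with the highest 3' to 5' ratio, and the part of RNA quality in its Apob signal was not tested beyond that covariate.

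Apom encodes a lipocalin of high density lipoprotein that carries sphingosine 1-phosphate, and its 2 probe sets differed in size. The brighter one (1419095_a_at) had log2 signals of 11.98, 11.67 and 11.57 in mutants, against 11.28, 11.22 and 11.47 in controls, separated by 0.41 (SE 0.21, 95% interval -0.06 to 0.89, adjusted p = 0.391, limma). The other (1419096_at) had 11.04, 11.16 and 10.85 in mutants, against 10.77, 10.86 and 10.91 in controls, with overlap and a difference of 0.17 (adjusted p = 0.668, limma). On the deposited scaling they gave -0.04 and -0.28. In all 4 genes with several probe sets, Apoa1, Apoa4, Apob and Apom, the probe sets of a gene shared the sign of their difference.

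**Figure D4:**
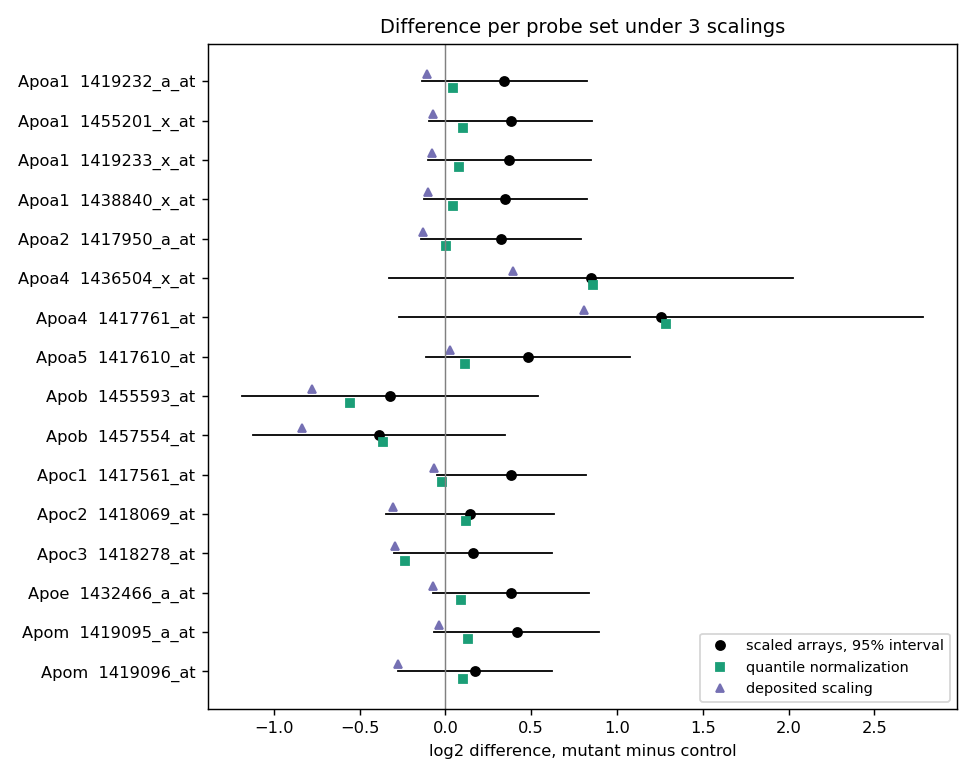
Log2 difference, mutant minus control, for each apolipoprotein probe set: black points with 95% intervals from limma on scaled arrays, green squares after quantile normalization, purple triangles on the deposited scaling. Every interval spans 0, and 8 of the 10 genes have a negative difference on the deposited scaling.

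The genes whose signals ran most like those of the 3 members with the largest differences were sought among 11726 other genes by Pearson correlation over the 6 arrays, a description in which all points share the arrays. For Apoa4 they were Zfp839, Pde4d and Ado (r = 0.994, 0.992 and 0.986). For Apoa5 they were Scara3, Gprasp1 and Mat2b (0.994, 0.988 and 0.985), and for Apom they were Cd300lf, Map4k4 and Osmr (0.998, 0.996 and 0.993). None of these 9 genes passed the test. In controls 1 to 3 Scara3 had 2.89, 2.90 and 3.04 and Cd300lf 2.99, 2.91 and 3.31, near the control background estimate of 2.86. Mutant 3 was the highest array for every gene found for Apoa4 and Apoa5, and mutant 1 for every gene found for Apom. A high r can thus rest largely on 1 array. Among the members, the highest r over the same 6 arrays was 0.989, for Apoa2 and Apoe. Apoc1 and Apoe had 0.973, and Apoa1 and Apoa2 had 0.972. Every r here is on scaled arrays, and none was computed on the deposited scaling or between other bright probe sets. The 121 other bright probe sets had median distances of 0.58, 0.15 and 0.31 in mutants 1 to 3, the same order as these genes. These r values therefore cannot be said to set the genes apart from other bright probe sets. In the chromosome 9 cluster, Apoa4 and Apoa5 had r = 0.927, Apoa5 and Apoc3 0.899, and Apoa4 and Apoc3 0.756. With Apoa1, r was lower, at 0.43 for Apoa5, 0.295 for Apoa4 and 0.186 for Apoc3.

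The sequences before the transcription starts of 3 cluster neighbours are shown as description only, and any part of theirs in the signals was not tested. No promoter sequence was held for Apoc3, the remaining gene of the cluster. The sequences shown are the 250 bases upstream of the RefSeq start on GRCm38.p6, plus strand, with any TATAAA in capitals. Apoa4 is chr9:46240594-46240843, Apoa1 is chr9:46228380-46228629 and Apoa5 is chr9:46268358-46268607.
Apoa4: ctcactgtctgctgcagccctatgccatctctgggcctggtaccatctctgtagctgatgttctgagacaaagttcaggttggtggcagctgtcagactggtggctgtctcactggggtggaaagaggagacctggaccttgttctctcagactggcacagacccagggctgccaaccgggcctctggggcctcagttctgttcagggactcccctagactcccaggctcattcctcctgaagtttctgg
Apoa1: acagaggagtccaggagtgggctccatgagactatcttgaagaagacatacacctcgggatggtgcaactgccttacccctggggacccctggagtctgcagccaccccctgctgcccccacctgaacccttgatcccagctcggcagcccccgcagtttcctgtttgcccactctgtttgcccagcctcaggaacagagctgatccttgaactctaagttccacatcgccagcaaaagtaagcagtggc
Apoa5: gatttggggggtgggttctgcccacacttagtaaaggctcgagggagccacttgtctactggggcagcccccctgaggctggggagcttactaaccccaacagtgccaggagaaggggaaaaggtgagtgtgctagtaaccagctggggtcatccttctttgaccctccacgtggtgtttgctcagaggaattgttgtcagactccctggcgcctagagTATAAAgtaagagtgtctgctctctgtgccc

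RefSeq promoter windows, from 250 bases before to 50 after a start, were held for 8 of the 10 genes, 12 windows in all. On either strand, TATAAA was found in 5 of the 12, belonging to Apoa2, Apoa5, Apob and Apoe, against 13.6% of all 32851 windows. In Apoa5 it began at -31 relative to the start shown, and the overlapping window of another Apoa5 start, also counted, held the same site at -56. The matches began at -212 in Apoa2, at -60 in Apob, and at -96 and, on the opposite strand, -100 in Apoe. The CArG box, the site SRF binds, was in 0 of the 12 windows and in 1.63% of all windows. A direct repeat of AGGTCA with 1 base of any kind between the copies, a form bound by nuclear receptors such as HNF4A, was in 0 of the 12 and in 0.0396% of all. A match is a match of letters only, and no match says only that the letters are not in the window.

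The other genes of lipoprotein metabolism were taken from 6 lists, and none of their 83 measured genes passed the test. Counts of genes with separated groups stand against 14.1% of all genes higher and 10.8% lower in mutants, and medians against 0.06 over all genes on scaled arrays and -0.39 on the deposited scaling. Of 14 genes of lipoprotein assembly and secretion, 4 lay lower without overlap and 0 higher, with a median difference of -0.29, and -0.75 on the deposited scaling. Pdia3, an endoplasmic reticulum disulfide isomerase, had log2 signals of 8.51, 10.07 and 9.48 in mutants, against 10.32, 10.73 and 10.26 in controls (-1.08, adjusted p = 0.331, limma). Cideb, a lipid droplet protein needed to load very low density lipoprotein with lipid, had 7.96, 10.03 and 9.63 in mutants, against 10.06, 10.28 and 10.25 in controls (-0.99, adjusted p = 0.388, limma). In both, mutant 1 was the lowest array, as for Apob. The sorting receptor Sort1 differed by -0.81 and A1cf, the partner of the Apob mRNA editing enzyme, by -0.94 (adjusted p = 0.373 and 0.391, limma).

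Among the 9 measured genes of receptors and uptake, 2 lay higher and 3 lower without overlap, with a median of -0.28, and -0.73 on the deposited scaling. Vldlr (1434465_x_at), a receptor for triglyceride-rich particles, had log2 signals of 7.63, 7.93 and 7.76 in mutants, against 5.96, 5.69 and 7.16 in controls (1.50, SE 0.39, adjusted p = 0.260, limma), and 1.05 on the deposited scaling. Pdzk1, which holds the high density lipoprotein receptor at the cell surface, differed by -1.51, the receptor chaperone Lrpap1 by -0.86 and the lipolysis-stimulated receptor Lsr by -0.73 (adjusted p = 0.374, 0.366 and 0.362, limma). Of 12 lipase and remodelling genes, 2 lay higher and 2 lower, with a median of 0.02, and -0.43 on the deposited scaling. Endothelial lipase, Lipg, had 2.49, 3.85 and 2.60 in mutants, a mean just under the background estimate of 3.05, against 4.75, 4.82 and 6.00011 in controls (adjusted p = 0.221, limma). The lipase maturation factor Lmf1 differed by -0.50, the lipoprotein-associated phospholipase Pla2g7 by 0.90 and the protease Mmp2 by 0.58 (adjusted p = 0.387, 0.331 and 0.362, limma).

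The 8 measured genes of sterol and phospholipid efflux had a median of 0.43 on scaled arrays and -0.02 on the deposited scaling, and 7 of the 8 were positive on scaled arrays. Abca6 had the largest value, 1.39, with 8.99, 6.33 and 7.05 in mutants, against 6.13, 6.04 and 6.02 in controls (adjusted p = 0.362, limma). The canalicular phospholipid pump Abcb4 differed by 0.74, the sterol half-transporter Abcg8 by 0.66 and the lysosomal sterol carrier Npc2 by 0.50 (adjusted p = 0.356, 0.410 and 0.418, limma).

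Apolipoproteins outside the 10 went both ways. Of the 10 listed genes, 2 lay higher and 3 lower without overlap, with a median of -0.44, and -0.89 on the deposited scaling. Apobr, counted among them at -0.16 with overlapping groups, encodes a receptor for apolipoprotein B and not an apolipoprotein. Apoc4 and Apoh lay higher without overlap on scaled arrays, with differences of 0.47 and 0.44 on scaled arrays and 0.02 and -0.01 on the deposited scaling (adjusted p = 0.365 and 0.375, limma). Saa4, the constitutive serum amyloid A of high density lipoprotein, had log2 signals of 7.55, 9.87 and 7.64 in mutants, against 10.87, 10.82 and 10.62 in controls (-2.42, SE 0.57, adjusted p = 0.230, limma). Apon had 7.09, 10.94 and 10.26 in mutants, against 11.10, 11.20 and 10.98 in controls (-1.66, adjusted p = 0.401, limma). All 3 mutants lay below all controls in both genes, with mutant 2 the closest to them. Without mutant 2 the lists held 3 called genes in place of 0: Saa4 (-3.18, adjusted p = 0.0023), Srebf1 (-2.63, adjusted p = 0.037) and Lipg (adjusted p = 0.046, limma). For Lipg no size is given, since both remaining mutant signals were under the background estimate. The share of all genes called without mutant 2 is not given, so the 0.114% called over 6 arrays cannot be set beside these 3. Mutants 1 and 3, which remained, had the highest 3' to 5' ratios, 4.53 and 2.98, against 1.72 to 2.32 in controls. The part of RNA quality in these calls was not tested. Srebf1, a regulator of fatty acid synthesis genes, is outside the naming rule and was named after its values were seen.

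Of 30 measured transcriptional regulators of apolipoprotein genes, 2 lay higher and 1 lower without overlap, with a median of -0.14, and -0.59 on the deposited scaling. Srebf2, the regulator of sterol synthesis and uptake, had 4.96, 5.56 and 5.13 in mutants, against 5.71, 6.08 and 6.21 in controls (-0.79, adjusted p = 0.333, limma). The corepressor Nr0b2 spread widely, with 1.10, 7.94 and 5.59 in mutants, against 7.18, 8.99 and 9.54 in controls (-3.69, SE 1.52, adjusted p = 0.355, limma). Its groups overlapped. Mutant 1, the array with the highest 3' to 5' ratio, lay under the background estimate of 3.05, so the size of this difference is not well fixed. Foxo1 differed by 0.68 and Usf2 by 0.57 (adjusted p = 0.353 and 0.381, limma).

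**Figure D5:**
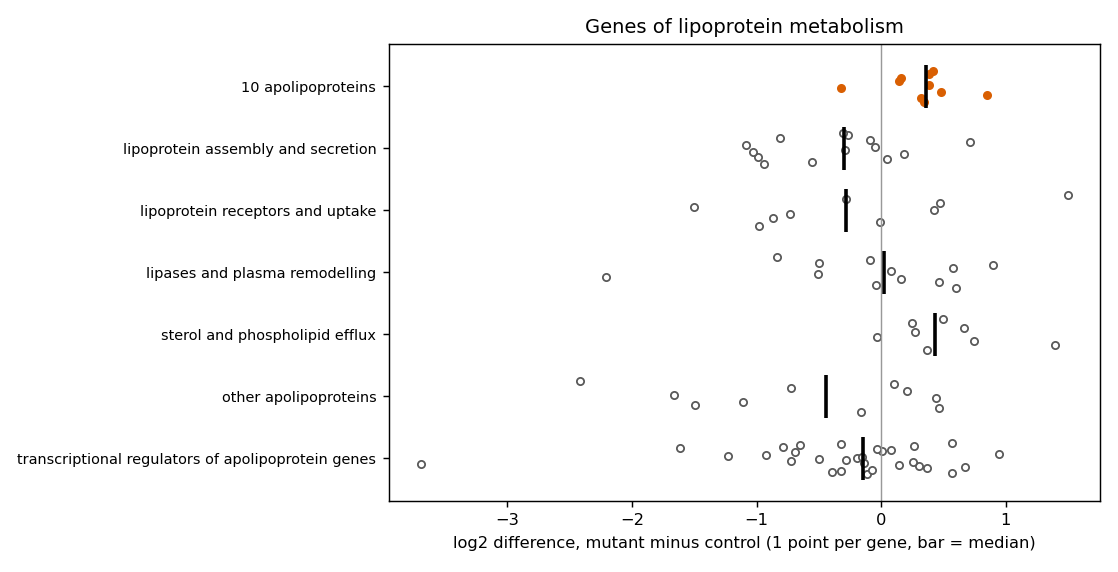
Log2 difference, mutant minus control, on scaled arrays for the 10 apolipoproteins (orange) and for the measured genes of 6 other lists (open points), 1 point per gene, with the list median as a bar. The apolipoproteins have a median of 0.36, which is -0.09 on the deposited scaling, and no point in the plot passed the test.

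Markers of other liver cells were measured in the same samples, and no gene in these lists passed the test. Stellate cell markers, 9 of 10 measured, had a summed signal of 913, 3581 and 1747 in mutants 1 to 3, and 2923 to 3187 in controls. Mutants 1 and 3 were also the arrays with the highest 3' to 5' ratios, and the part of RNA quality was not tested. Of the 9 stellate markers 3 were separated lower, against 10.8% of all genes. Their median difference was -1.15, and -1.60 on the deposited scaling, against 0.06 and -0.39 over all genes. Endothelial markers, 10 of 10 measured, summed to 682 to 2271 in mutants and 1118 to 1689 in controls. Cholangiocyte markers, 5 of 8 measured, summed to 41.6 to 73.8 in mutants and 40.03 to 44.3 in controls, and erythroid markers, 3 of 8 measured, to 55.0 to 384 in mutants and 258 to 504 in controls. Hepatocyte markers had a median difference of 0.37 on scaled arrays and -0.08 on the deposited scaling. On scaled arrays 8 of 10 were separated higher, against 14.1% of all genes and 57.9% of the 121 bright probe sets outside the 10 apolipoproteins. The part of cell composition in the apolipoprotein signals was not tested.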

How the data were processed

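Total RNA of 6 livers was hybridised to 1 Affymetrix array each after one-cycle labelling, per the labels' protocols. The deposited values are array intensities on a linear scale, 1 per probe set; the submitters' processing notes name GCOS, with no version, algorithm or target value. The number of arrays, 3 per group, limits the precision.

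The deposited trimmed means (2% left out at each end) were 36.8, 57.6 and 42.0 for mutants 1 to 3 and 54.7, 69.3 and 60.2 for controls 1 to 3. The largest exceeded the smallest by 88.3%, over the 5% allowed, so each array was scaled to their mean, which moved mutant minus control by 0.45 on the log2 scale. Signals under 1 were set to 1 after scaling and log2 was taken. The 40% of probe sets with the lowest mean were left out, and 27022 remained. Of all probe sets 34945 had 1 gene symbol, 932 several and 9160 none listed; the brightest probe set represented its gene. Groups were compared with limma 3.58.1 in R 4.3.3 (variance trend, adjusted by Benjamini-Hochberg across the kept probe sets, threshold 0.05), a fit tested on simulated data. Within-array ratios were compared with two-sided exact permutation tests (scipy 1.17.1). Same-numbered mutant and control arrays did not deviate together (r = -0.04, 0.02 and 0.04), so the numbers were not taken as pairs.

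Members and lists were chosen with earlier results of these data known. Named were all members, Srf, of each other list up to 4 genes of smallest adjusted p, and for 3 members the 3 genes most correlated with each; genes named outside this rule are marked where they appear. Alternatives covered scaling, floor, offset, filter, variance trend, probe set choice, the 3' to 5' ratio, a replicate block and leaving out each array. Promoter sequences are from RefSeq, GRCm38.p6. Listed genes with no probe set of a single symbol were not analysed here.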

Additional observations from a re-analysis of the deposited data

How the results depend on the processing

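No apolipoprotein gene passed the threshold in any of 18 alternative settings of the fit (180 gene-by-setting values, lowest adjusted p 0.212 in limma). The direction reversed in 11 of the 180 gene-by-setting values. On the deposited scaling the log2 differences were -0.11 for Apoa1, -0.13 for Apoa2, -0.068 for Apoc1, -0.31 for Apoc2, -0.29 for Apoc3, -0.072 for Apoe and -0.038 for Apom, and after quantile normalization -0.019 for Apoc1 and -0.24 for Apoc3. Apob became 0.44 with the 3' to 5' ratio as a covariate and 0.14 without mutant 1, the top of a range from -0.56 when 1 array was left out; the ranges were 0.22 to 0.45 for Apoa1, 0.23 to 0.40 for Apoa2, 0.21 to 1.19 for Apoa4, 0.23 to 0.65 for Apoa5, 0.33 to 0.44 for Apoc1, 0.038 to 0.26 for Apoc2, 0.074 to 0.27 for Apoc3, 0.30 to 0.46 for Apoe and 0.29 to 0.50 for Apom. The 6 genes with separated groups became 0 on the deposited scaling and 0 after quantile normalization, and 4 with median centring. Leaving out 1 array gave 0 to 0 apolipoprotein genes past the threshold, 0 to 3 other genes of lipoprotein metabolism, 3 to 4 genes whose probe sets shared a sign, and 6 to 8 genes with separated groups. Shares of all genes under these settings are not given, and 2 arrays against 3 separate more readily than 3 against 3. The within-array log2 ratios then ran from -0.14 to 0.97 for Apoa4 to Apoa1, -0.12 to 0.43 for Apoa5 to Apoa1, -0.31 to 0.048 for Apoc3 to Apoa1, -0.045 to 0.033 for Apoc1 to Apoe and -0.37 to -0.11 for Apoc2 to Apoe. With the replicate number as a block, 0 apolipoprotein genes and 0 other genes of lipoprotein metabolism passed, 4 of 4 genes kept 1 sign over their probe sets, and the ratios were 0.50, 0.14, -0.18, 0.0038 and -0.24; the block changed no call. With 3 arrays per group, intervals such as -0.33 to 2.02 for Apoa4 leave sizes from a small decrease to a large increase unresolved. The cause of these shifts was not tested.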
